A study of Mus musculus and Homo sapiens with 15 samples.

Results

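The genes of the SR, Tra2 and hnRNP families were followed through 15 INSCRIBE libraries of mouse brain slices and human HEK293XT cells. A gene was a member if its symbol in the labels of the edit clusters began with Srsf, Tra2 or Hnrnp in brain, or with SRSF, TRA2 or HNRNP in HEK293XT. This gave 34 of 20838 symbols in brain and 57 of 18756 in HEK293XT, with 33 symbols in both. In brain 33 members were protein coding and the other was the pseudogene Hnrnpa1l2-ps2, with 4 edited bases in 3 libraries. In HEK293XT 36 were protein coding and 20 were pseudogenes, and HNRNPA1P48 had no entry in the annotation used. Of the HEK293XT members without a namesake in the brain lists, SRSF8, an SR protein, held 26 edited bases, HNRNPA1L2, a copy of HNRNPA1, held 12, and the readthrough locus HNRNPUL2-BSCL2 held 19.

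INSCRIBE maps the RNAs of an RNA-binding protein in fixed cells by C-to-U editing. An antibody to the protein is followed by a nanobody fused to the cytidine deaminase APOBEC1, and edited cytidines are read as T in RNA sequencing. The brain slices were paraformaldehyde-fixed sections of female C57BL/6J mice aged 2 months: 3 received RBFOX2 antibody and enzyme (RBFOX2-INSCRIBE), 3 enzyme without antibody (enzyme-only) and 3 neither (buffer-only). HEK293XT, a human embryonic kidney line, received enzyme only, with 3 libraries made from 1 ng and 3 from 100 pg of RNA and no library without enzyme. Each brain replicate was 1 coronal section and the 9 sections came from at most 2 mice, and the methods describe HEK cell replicates as wells of cells, which the labels do not state for these low-input libraries. The p-values therefore measure the spread between these samples.

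SR proteins carry RNA recognition motifs and a domain rich in arginine and serine, bind enhancers in exons and recruit the splicing machinery. Tra2 proteins are built alike and bind GAA-rich enhancers, and hnRNP proteins coat nascent transcripts and often oppose the use of nearby splice sites. Many genes of these families are known to control their own level through exons whose inclusion sends the mRNA to nonsense-mediated decay. RBFOX2 is a splicing regulator that binds UGCAUG, often in the introns beside the exons it controls.

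An edited base is a C-to-T change in 1 read inside a cluster, a stretch of windows that the authors' caller scored above background, and a target base is a cytidine read in that cluster. Positions without any edited read are not in the lists, and a region missing from a library may have been unread, unedited or edited too little. The libraries held 184343 to 319505 edited bases in brain and 49903 to 76683 in HEK293XT, with a median of 16 to 17 reads at a kept site in brain and 19 to 24 in HEK293XT. Members took 0.133% to 0.200% of these edited bases in brain and 1.16% to 1.86% in HEK293XT. All 9 neuron markers were listed in every brain library. Their summed edited bases ran from 2520 to 2776 for RBFOX2-INSCRIBE, from 2095 to 2265 for enzyme-only slices and from 1524 to 2029 for buffer-only slices. Astrocyte markers summed to 497 to 643 edited bases for RBFOX2-INSCRIBE, 418 to 505 for enzyme-only slices and 221 to 339 for buffer-only slices. Oligodendrocyte markers ran from 116 to 136, from 151 to 170 and from 97 to 119 in that order, microglia markers from 34 to 39, 34 to 60 and 25 to 39, and endothelial markers from 39 to 63, 32 to 51 and 30 to 32. What part these differences have in the results was not tested. In HEK293XT, 5 of 6 genes that these cells should lack were at 0 in every library and the other reached 1. Of 7 HEK293 marker genes only 2 were listed in every library, and the 7 summed to 22 to 27 edited bases at 1 ng and 38 to 75 at 100 pg. Edited bases of a gene follow both its RNA level and its editing, and in slices fewer cells of a type and less RNA per cell cannot be told apart.

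Sequences from edited regions of the members are given here, first UGCAUG in or beside clusters of RBFOX2-INSCRIBE libraries and then edited cytidines, in genome letters 5′ to 3′ on the gene's strand. Capitals mark UGCAUG, written TGCATG, in the first set. They lie at chr4:135861179-135861208 (plus strand), chr6:49252732-49252761 and chr6:49254206-49254235 (both minus strand) of mm10, all intronic.
Srsf10 intron, UGCAUG: gcttctacagtcTGCATGgatgtcatgtgc
Tra2a intron 11, UGCAUG: tgtagatgaattTGCATGattacttagtta
Tra2a intron 13, UGCAUG: caagtttggttgTGCATGccaatgtatact

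Capitals mark cytidines listed as edited in the second set. The Srsf10 and Tra2a windows, chr4:135861286-135861314 (plus strand) and chr6:49250625-49250653 (minus strand) of mm10, are intronic. The 3 others are 3′ UTR sites edited in at least 3 HEK293XT libraries, at chr3:185917540-185917568 (minus strand), chr6:36602397-36602425 (plus strand) and chr9:83968564-83968592 (minus strand) of hg38.
Srsf10 intron, edited C: tgcaaggaagaCaaCtaCatgaaataata
Tra2a intron 7, edited C: ggCttcttgcaactCtgaCtgaattgctC
TRA2B 3′ UTR, edited C: tgaaatgctgttttCattctgcatttgtg
SRSF3 3′ UTR, edited C: gttgaacaagcagtCtttaaaaactgctg
HNRNPK 3′ UTR, edited C: ggtggggagcagtaCtacaagttgagtaa

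Most brain members had edited bases in every library, at low counts, also in buffer-only slices, which received no enzyme. The authors ascribe changes in their buffer-only controls to damaged RNA, errors of reverse transcription or PCR, or endogenous editing. About as many HEK293XT members were missing from some library as were listed in all. In brain, 32 of 34 members were listed in all 9 libraries, and the members together held 4117 edited bases, the 8 highest taking 41.6%. These 8 were Hnrnpm, a GU-rich element binder (272 edited bases over the 9 libraries), Tra2a, an activator of exons (248), Hnrnpd, also known as the mRNA decay factor AUF1 (220), Hnrnpul1, a relative of Hnrnpu (200), Hnrnpc, a binder of uridine tracts (199), Hnrnpr, a relative of Syncrip (195), Hnrnpu, a nuclear scaffold protein (195), and Srsf10, an SR protein that can repress splicing (183). In HEK293XT, 28 of 57 members were listed in all 6 libraries, and 6152 edited bases lay in members. TRA2B, the other Tra2 protein, held 892 of them, ahead of HNRNPU (361), HNRNPK, a binder of C-rich RNA (319), SRSF10 (291), HNRNPR (287), the SR-related SRSF11 (286) and HNRNPC (276). HNRNPA2B1, known for RNA transport, and SRSF3, the smallest SR protein, tied at 240. Non-coding members held 4 edited bases in brain and 325 in HEK293XT. Labels did not always lie inside the gene: 98.1% of member label entries did in brain and 91.7% in HEK293XT, with Hnrnpm at 78.5% and pseudogenes such as HNRNPA3P14 at 0%.

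The editing of the members lay more in exons than that of clusters at large in each of the 15 libraries, and among the brain groups the share of the members was lowest in RBFOX2-INSCRIBE. The exon label covered 59.3%, 56.8% and 58.3% of the members' edited bases in the RBFOX2-INSCRIBE libraries, 69.4%, 67.5% and 68.6% in enzyme-only and 60.2%, 62.2% and 65.3% in buffer-only. RBFOX2-INSCRIBE lay below enzyme-only in every library, by means of 58.1% ± 1.2 against 68.5% ± 0.92 (SD, n = 3 each), and enzyme-only lay above buffer-only (62.6% ± 2.6) in every library. No test was made on these shares, and an exact two-sided permutation test of 3 against 3 libraries could not go below 0.1. Over all clusters the RBFOX2-INSCRIBE libraries had 38.7% to 45.0%, also below every enzyme-only library (48.2% to 51.2%). The buffer-only libraries had 40.3% to 48.0% over all clusters and overlapped with RBFOX2-INSCRIBE. In HEK293XT the members' share was 85.3%, 87.8% and 82.7% at 1 ng and 93.1%, 86.1% and 91.2% at 100 pg, and these ranges overlapped. All clusters were at 73.4% to 76.4% and 81.7% to 82.5%.

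**Figure D1:**
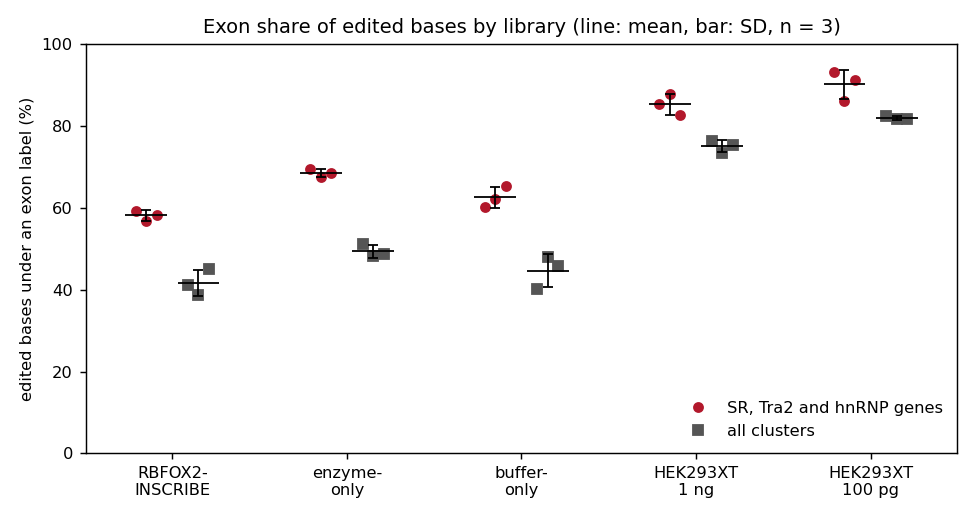
Percent of edited bases under an exon label in each library (y axis) for the 5 groups (x axis), for SR, Tra2 and hnRNP genes (red circles) and for all clusters (grey squares), with mean line and SD bar over 3 libraries. The members together lie above all clusters in all 15 libraries, and their RBFOX2-INSCRIBE libraries (56.8% to 59.3%) lie below enzyme-only (67.5% to 69.4%).

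The means of the 3 families stood in the same order of groups in brain. SR genes had 63.3% ± 1.5 of their edited bases in exons in RBFOX2-INSCRIBE and 76.9% ± 1.1 in enzyme-only, Tra2 genes 39.8% ± 3.8 and 56.2% ± 2.7, and hnRNP genes 58.5% ± 1.5 and 67.2% ± 1.8. Buffer-only slices gave 71.0% ± 8.1, 43.7% ± 4.6 and 61.7% ± 3.0 for SR, Tra2 and hnRNP genes in that order. The means over all clusters were 41.6% in RBFOX2-INSCRIBE, 49.4% in enzyme-only and 44.6% in buffer-only. The Tra2 genes thus lay below all clusters in RBFOX2-INSCRIBE and buffer-only, and the SR and hnRNP genes above them in each group. In HEK293XT the SR genes had 87.0% ± 1.5 at 1 ng and 93.7% ± 3.5 at 100 pg, and the Tra2 genes 96.9% ± 1.9 and 96.9% ± 2.7. The hnRNP genes spread most there, at 78.6% ± 7.0 and 85.7% ± 9.2. They lay below all clusters in 1 ng replicate 3 (70.6% against 75.4%) and 100 pg replicate 2 (75.3% against 81.7%), and above them in the other HEK293XT libraries. In 100 pg replicate 2, 69 edited bases carried an intron label of the pseudogene HNRNPA3P14 but lay outside it, and with clusters inside gene bodies alone all members came to 89.1% at 1 ng and 94.3% at 100 pg.

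Most members had a higher exon share in HEK293XT than in brain. Of 31 namesake pairs with at least 20 edited bases in each system, the exon share was higher in HEK293XT in 26 and lower in 3. SRSF9 had 97.9% of its edited bases in exons in HEK293XT and 28.3% in brain. HNRNPC had 91.7% in HEK293XT and 36.7% in brain, and TRA2B 99.3% in HEK293XT and 48.4% in brain. The 3 pairs the other way differed little, with HNRNPL at 50.9% in HEK293XT and 55.5% in brain, HNRNPH2 at 93.3% and 98.3%, and SRSF6 at 94.2% and 97.1%. Species, cell type, library kit, input and, with all slices summed, treatment differ between the systems and cannot be told apart. How these HEK293XT cells were fixed is not stated, so fixation may differ too. The brain shares sum slices with antibody and enzyme, with enzyme only and with neither, while all HEK293XT libraries received enzyme only. In enzyme-only slices alone Srsf9 had 4, 5 and 3 edited bases in exons and 6, 4 and 2 in introns. The members together had 67.5% to 69.4% in exons there, below every HEK293XT library (82.7% to 93.1%). All clusters also lay more in exons in HEK293XT.

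**Figure D2:**
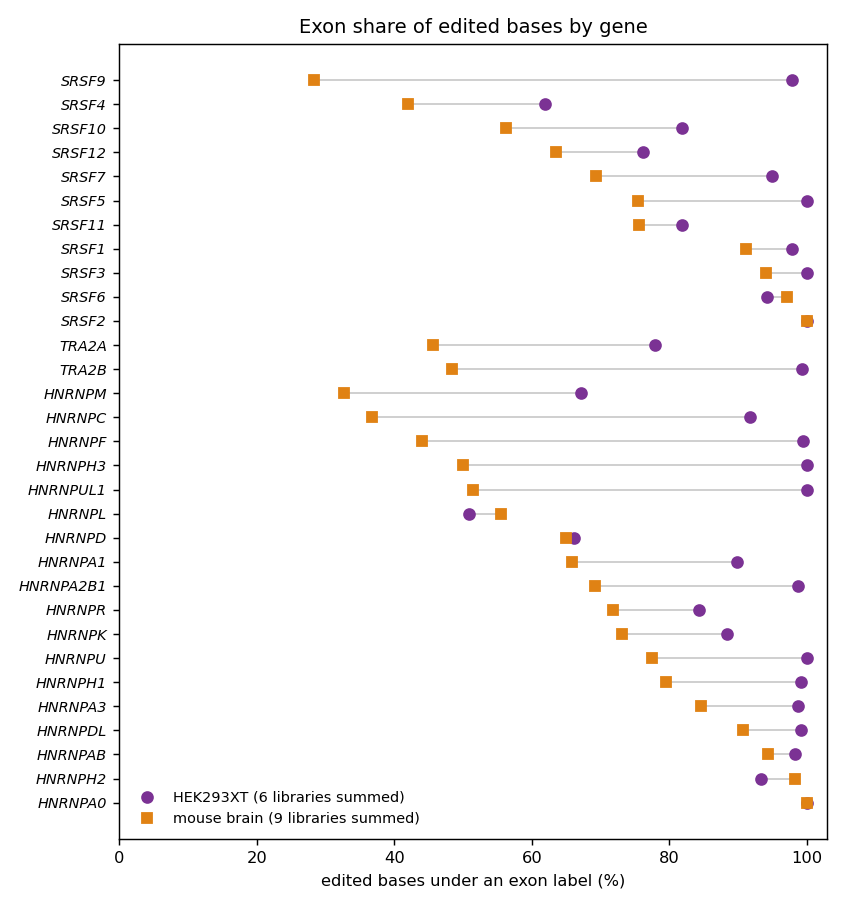
Percent of edited bases under an exon label (x axis) for the 31 genes with at least 20 edited bases in each system (y axis, grouped as SR, Tra2 and hnRNP genes), HEK293XT as purple circles and mouse brain as orange squares. The circle lies to the right in 26 genes, farthest from its square in SRSF9 (97.9% and 28.3%).

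By the base at the centre of each cluster, introns held 41.0% ± 1.2 of the members' edited bases in RBFOX2-INSCRIBE, 31.0% ± 1.3 in enzyme-only and 36.7% ± 2.5 in buffer-only. The 3′ UTRs held 28.2% ± 2.6, 34.2% ± 2.0 and 25.9% ± 0.50 in these groups, and coding sequence 11.98% ± 0.90, 17.3% ± 1.8 and 15.9% ± 2.0. In HEK293XT the 3′ UTRs held 60.2% ± 0.98 at 1 ng and 58.5% ± 5.5 at 100 pg, and coding sequence 15.6% ± 3.9 and 27.3% ± 6.5. Exons found only in transcripts annotated for nonsense-mediated decay held 3.15% ± 2.2 in RBFOX2-INSCRIBE, 2.49% ± 0.56 in enzyme-only and 1.81% ± 0.76 in buffer-only. In HEK293XT they held 4.197% ± 1.7 at 1 ng and 1.99% ± 0.33 at 100 pg. HNRNPU held 72 such edited bases over its 6 libraries and SRSF7, an SR protein with a zinc knuckle, 32. In brain the most were in Hnrnpa1, which acts on splicing silencers (29), and Srsf3 (21). A total of 25 members had at least 1. The shares in this paragraph cover members only, with no value over all genes beside them.

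No member passed the test per gene between RBFOX2-INSCRIBE and enzyme-only, the comparison that separates the antibody from free enzyme. In edgeR's quasi-likelihood test over 9509 genes, 156 (1.64%) were called at a Benjamini-Hochberg adjusted p under 0.05, 134 (1.41%) higher and 22 (0.231%) lower. Of the 34 members 23 passed the filter on low counts and were tested. Of these 0 were called and 1 had an unadjusted p under 0.05, where 1268 of all 9509 genes did. The members' median log2 change was 0.07 and that of all genes −0.02. All 7 SR genes tested had a positive change, with a median of 0.23, and the 14 hnRNP genes had 6 positive changes and a median of −0.04. The groups did not overlap in scaled values for 2 members higher and 2 lower, where 8.77% and 8.6% of all genes tested did the same.

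Srsf9, an SR protein known in splice site choice, had 13, 21 and 18 edited bases in RBFOX2-INSCRIBE, against 10, 9 and 5 in enzyme-only. Its libraries did not overlap, also after scaling, and the log2 change was 0.85 ± 0.42 (SE, adjusted p = 0.373). Srsf3 had 23, 22 and 18 in RBFOX2-INSCRIBE and 12, 8 and 15 in enzyme-only (log2 change 0.57 ± 0.37, adjusted p = 0.531), again without overlap. Hnrnph3, a G-tract binder, had 21, 11 and 11 against 11, 8 and 6 in enzyme-only, and its groups touched at 11 (0.51 ± 0.43, adjusted p = 0.68). With target bases as an offset these 3 changes turned to −0.00084, −0.22 and −0.27.

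At the other end, Hnrnpdl, a paralogue of Hnrnpd, had 2, 11 and 6 edited bases in RBFOX2-INSCRIBE, against 8, 9 and 10 in enzyme-only (log2 change −0.76 ± 0.52, adjusted p = 0.565). The value of 2 came from RBFOX2-INSCRIBE replicate 1 and replicate 2 had more edited bases than each enzyme-only library. Hnrnpul2, a relative of Hnrnpu, had 17, 26 and 9 against 30, 21 and 14 in enzyme-only (−0.59 ± 0.34, adjusted p = 0.451). Hnrnpl, a binder of CA repeats, had 19, 14 and 14 against 20, 16 and 18 in enzyme-only, overlapping in counts but not after scaling (−0.46 ± 0.35, adjusted p = 0.616). Tra2b also lay lower after scaling in every library (−0.37 ± 0.31, adjusted p = 0.668), and Tra2a had a change of 0.00014 ± 0.25 (adjusted p = 1). With target bases as an offset Hnrnpl, Hnrnpul2 and Hnrnpdl turned to 0.42, 0.084 and 0.074. Hnrnpm, the member with the most edited bases in brain, had 41, 38 and 46 in RBFOX2-INSCRIBE and 32, 31 and 24 in enzyme-only (0.27 ± 0.25, adjusted p = 0.714), and after scaling to library totals these overlapped.

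**Figure D3:**
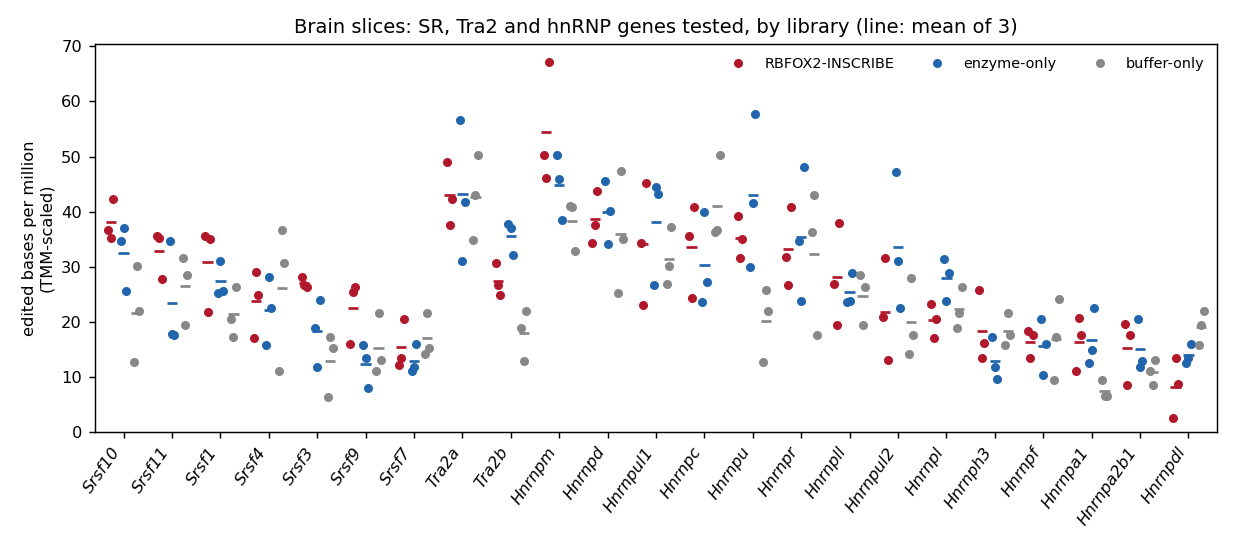
Edited bases of each gene scaled to a common library total with TMM factors (y axis), for the 23 members tested in brain (x axis, SR, then Tra2, then hnRNP genes), with 3 RBFOX2-INSCRIBE, 3 enzyme-only and 3 buffer-only libraries as points and group means as lines. Of these members Srsf9 and Srsf3 have every RBFOX2-INSCRIBE library above every enzyme-only library, and Hnrnpu, Hnrnpa1 and Tra2b have every enzyme-only library above every buffer-only library.

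Enzyme-only slices were set against buffer-only slices to see what free enzyme adds. This comparison uses the same enzyme-only libraries as the one above. Of 9509 genes 35 (0.368%) were called, 25 (0.263%) higher and 10 (0.105%) lower, with 0 of the 23 members tested among them. An unadjusted p under 0.05 was reached by 4 of these members and by 982 of all 9509 genes. The members' median log2 change was 0.18 and that of all genes −0.01. Hnrnpu had 19, 28 and 36 edited bases in enzyme-only and 8, 12 and 10 in buffer-only, without overlap (1.13 ± 0.34, adjusted p = 0.114). Tra2b had 24, 25 and 20 against 12, 6 and 10 in buffer-only (0.98 ± 0.36, adjusted p = 0.203), and Hnrnpa1 8, 10 and 14 against 6, 3 and 3 (1.09 ± 0.55, adjusted p = 0.481). These were the 3 members with no overlap on the higher side, where 8.27% of all genes stood, and 0 members did so on the lower side, where 6.61% stood. The lowest changes were those of Hnrnph3 (−0.48 ± 0.46, adjusted p = 0.778), Hnrnpdl (−0.42 ± 0.49, adjusted p = 0.815) and Hnrnpc (−0.42 ± 0.31, adjusted p = 0.661). With target bases as an offset, where the median of all genes moved to 0.19, these 3 turned positive and Hnrnpa1 turned to −0.41.

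Where a gene's editing lay, in introns or exons, was compared in the 2258 genes with enough edited bases under both labels. RBFOX2-INSCRIBE moved 47 of them (2.08%) against enzyme-only, 37 (1.64%) towards introns and 10 (0.443%) towards exons. Over all genes tested there was a median log2 difference, intron change minus exon change, of 0.53 and 85.2% of genes towards introns. Only 6 members could be tested, Srsf10, Tra2a, Tra2b, Hnrnpd, Hnrnpm and Hnrnpul1, and 0 were called. All 6 had a positive difference, 0.39 for Hnrnpul1, 0.55 for Hnrnpm, 0.78 for Hnrnpd, 0.85 for Tra2a and 0.98 for Tra2b, with adjusted p of 0.382 to 0.761 for these 5. Hnrnpul1 turned to −0.32 without RBFOX2-INSCRIBE replicate 2. Between enzyme-only and buffer-only 33 of the genes (1.46%) were called, 32 (1.42%) towards exons and 1 (0.0443%) towards introns, again with 0 members. Tra2b came nearest there: its exon label held 15, 17 and 10 edited bases in enzyme-only and 1, 2 and 5 in buffer-only, its intron label 9, 8 and 10 in enzyme-only and 11, 4 and 5 in buffer-only. The exon counts did not overlap and the intron counts did (difference −1.87, adjusted p = 0.233).

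Srsf10 stood nearest to a call. Its intron label held 15, 19 and 20 edited bases in RBFOX2-INSCRIBE, 4, 7 and 6 in enzyme-only and 1, 4 and 4 in buffer-only. Its exon label held 15, 10 and 9 in RBFOX2-INSCRIBE, 18, 18 and 10 in enzyme-only and 7, 10 and 6 in buffer-only. Every RBFOX2-INSCRIBE library thus exceeded every other library in the intron, while the exon counts overlapped. The log2 change was 1.38 in the intron and −0.71 in the exon, a difference of 2.09 (adjusted p = 0.0648), and the adjusted p ranged from 0.0556 to 0.275 over the alternatives that tested it. Summed over both labels Srsf10 changed little (log2 0.22 ± 0.30, adjusted p = 0.797).

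A region of the Srsf10 intron, chr4:135859787-135860071 of mm10, was listed in all 3 RBFOX2-INSCRIBE libraries, 2 enzyme-only libraries and 1 buffer-only library. It had 8 of 1623, 6 of 633 and 1 of 270 target bases edited in these groups. Another region recurred in RBFOX2-INSCRIBE only. At chr4:135861197-135861406 of mm10, 3 of 188 target bases were edited in RBFOX2-INSCRIBE replicate 1, 5 of 252 in replicate 2 and 10 of 260 in replicate 3, and no cluster was listed in any enzyme-only or buffer-only library. Cover in the control libraries is not recorded there, so the region may have been unread or unedited in them. Its 9 edited cytidines lay 19 to 194 nt after the UGCAUG printed above, whose last base is next to the start of the region. The cytidine 107 nt after the motif, the last capital in the second Srsf10 sequence, was edited in all 3 libraries, in 1 of 23, 2 of 17 and 1 of 19 reads. The region was chosen after its values were seen. No RBFOX2-INSCRIBE cluster of Srsf10 held UGCAUG itself. The only brain cluster of Srsf10 that did was in enzyme-only replicate 3, in the same intron at chr4:135859622-135859666 (1 of 490 target bases). The confident lists were made by intersecting the clusters of a group's replicates. The RBFOX2-INSCRIBE list had 2 clusters of the chosen region, 1 found in 3 libraries and the other in 2. It rests on the same libraries from which the region was chosen.

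**Figure D4:**
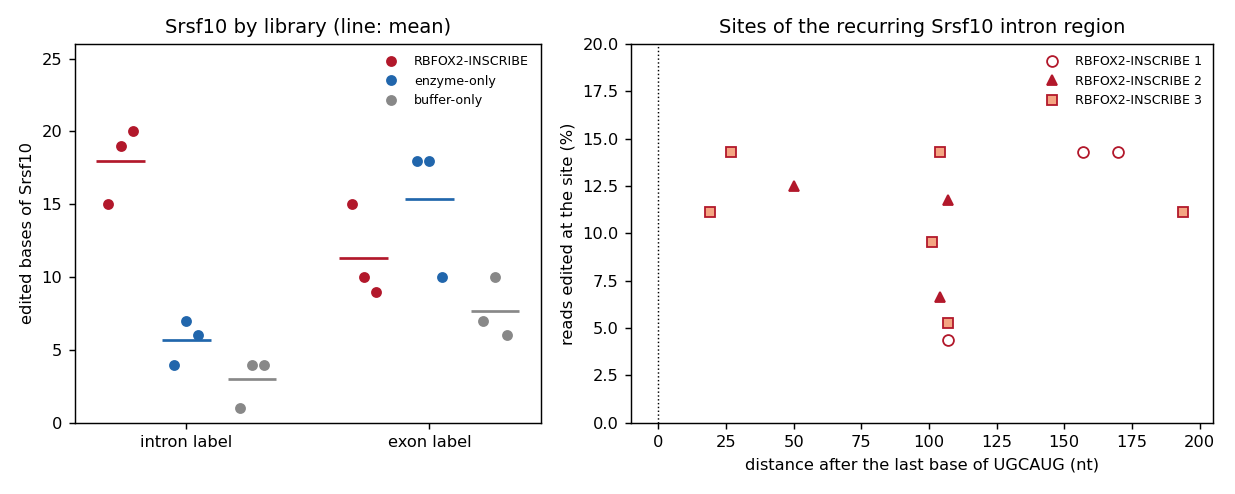
Left, edited bases of Srsf10 (y axis) under the intron and exon labels in RBFOX2-INSCRIBE, enzyme-only and buffer-only libraries, with group means as lines, where the intron counts of RBFOX2-INSCRIBE (15 to 20) exceed all others (1 to 7). Right, percent of reads edited at each listed cytidine of the intron region chr4:135861197-135861406 (y axis) in the 3 RBFOX2-INSCRIBE libraries. The x axis gives its distance after UGCAUG in nt, and each point rests on 7 to 23 reads.

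Recurrence was rare elsewhere. The members' clusters merged into 1927 regions in brain, of which 68.5% were listed in 1 library and 0 in all 9, and 607 (31.5%) were listed only in RBFOX2-INSCRIBE, 467 (24.2%) only in enzyme-only and 342 (17.7%) only in buffer-only. Over the regions of all genes, formed in the same way, these shares were 32.2%, 25.0% and 22.2%, close to or above those of the members. The RBFOX2-INSCRIBE libraries listed 191648 to 229430 clusters each, the enzyme-only libraries 180088 to 194013 and the buffer-only libraries 139884 to 188391. Regions listed in all 3 RBFOX2-INSCRIBE libraries and no other library numbered 5 (0.259%), against 2 (0.104%) for enzyme-only and 0 for buffer-only, where all genes had 0.123%, 0.0608% and 0.0408%. Besides Srsf10 the 5 lay in introns of Hnrnpc, Hnrnpd and Hnrnpm and in an exon of Hnrnpm, each with 3 edited bases in all. Hnrnpu and Hnrnpa1 each had a 3′ UTR region listed in all 6 slices that received enzyme and in no buffer-only slice, with 4 and 6 edited bases in RBFOX2-INSCRIBE and enzyme-only for Hnrnpu, and 4 and 3 for Hnrnpa1.

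UGCAUG was looked for in the clusters themselves, as TGCATG on the cluster's strand. It occurred in 11, 11 and 15 member clusters of the RBFOX2-INSCRIBE libraries, or 2.56%, 2.81% and 3.83%, where all clusters had 2.42% to 2.63%. With 100 nt on either side included, the members had 9.30%, 11.2% and 12.5% in RBFOX2-INSCRIBE and all clusters 10.5% to 11.1%. In exons the members' shares were 0%, 1.41% and 3.20% in RBFOX2-INSCRIBE, with 1.87% to 1.97% over all exon clusters. In introns the members' shares were 5.85%, 4.47% and 4.62% in RBFOX2-INSCRIBE, with 2.66% to 3.01% over all intron clusters. They were 2.48%, 0.794% and 2.52% in enzyme-only, with 1.72% to 1.82% over all intron clusters, and 3.39%, 0% and 2.15% in buffer-only, with 1.63% to 1.72%. Enzyme-only libraries had 7, 1 and 8 such member clusters and buffer-only libraries 6, 0 and 4, while all clusters of enzyme-only were at 1.57% to 1.62% and those of buffer-only at 1.46% to 1.55%. The motif counts are small, and the share within a library rests on at most 15 clusters. Srsf11 and Tra2a had such a cluster in all 3 RBFOX2-INSCRIBE libraries, with 5 and 6 clusters in all, every one in an intron. Enzyme-only replicate 1 also had such a cluster in Srsf11, with 1 of 100 target bases edited, and it overlapped 1 of those in RBFOX2-INSCRIBE replicate 1.

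Of the 6 Tra2a clusters 5 held the motifs printed above, in introns labelled 11 and 13, and the other lay in the intron labelled 14 (RBFOX2-INSCRIBE replicate 1, 1 of 359 target bases). The intron 11 motif was in a cluster of RBFOX2-INSCRIBE replicates 1 and 2, with 1 of 208 and 2 of 327 target bases edited, and its region was also listed in buffer-only replicate 1 (1 of 140). The intron 13 motif was in a cluster of all 3 RBFOX2-INSCRIBE libraries (1 of 354, 1 of 173 and 2 of 131), and the region was listed in enzyme-only replicate 3 (1 of 372) and buffer-only replicate 3 (1 of 119). Both printed regions were thus listed in at least 1 library without antibody. The intron labelled 7 of Tra2a had no UGCAUG in the window printed and more edits, 6 of 128 target bases in RBFOX2-INSCRIBE replicate 1 and 8 of 264 in replicate 2, with no cluster in replicate 3, enzyme-only or buffer-only. Tra2a intron counts as a whole were 26, 21 and 16 in RBFOX2-INSCRIBE and 19, 11 and 10 in enzyme-only, which overlap.

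In HEK293XT the libraries of 1 ng were set against those of 100 pg, a comparison of input. Of 2577 genes 8 (0.31%) were called, all lower at 1 ng. Of the 57 members 27 were tested, 0 were called and 8 had an unadjusted p under 0.05, where 250 of all 2577 genes did. The members' median log2 change was −0.59 against 0.01 for all genes, with 22 of 27 negative. That median differed between fits, for causes that were not tested: with DESeq2 the members were at −0.90 and all genes at −0.57, and with target bases as an offset the members were at −0.40 and all genes at −0.65. The direction turned with the number of clusters per gene, where the members were at 0.064 and all genes at −0.11. No overlap was seen for 1 member higher and 4 lower, where 10.4% and 9.47% of all genes stood. Core spliceosome genes, a list of components of the splicing machinery, had a median of −0.80 over 16 tested and 0 called.

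HNRNPF, a G-tract binder, had 16, 11 and 3 edited bases at 1 ng and 85, 27 and 34 at 100 pg (log2 change −2.01 ± 0.75, adjusted p = 0.367). SRSF2, an SR protein of nuclear speckles, had 9, 5 and 24 at 1 ng and 29, 72 and 58 at 100 pg (−1.84 ± 0.69, adjusted p = 0.367). Neither overlapped. HNRNPC had 13, 33 and 14 against 136, 55 and 25 at 100 pg and did overlap (−1.67 ± 0.62, adjusted p = 0.367), and it turned to 0.72 with target bases as an offset. HNRNPH3 ran the other way, with 16, 21 and 10 at 1 ng and 0, 0 and 7 at 100 pg (2.83 ± 1.28, adjusted p = 0.488). The next highest were HNRNPH2, a G-tract binder (0.58 ± 1.104, adjusted p = 0.952), and SRSF6, an SR protein (0.29 ± 0.64, adjusted p = 0.957). In the exon and intron test 100 genes could be fitted and 0 were called. SRSF11 had 11, 14 and 16 intron edited bases at 1 ng and 1, 0 and 10 at 100 pg, a difference of 2.91 (adjusted p = 0.385), and HNRNPD gave 1.90 (adjusted p = 0.657).

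**Figure D5:**
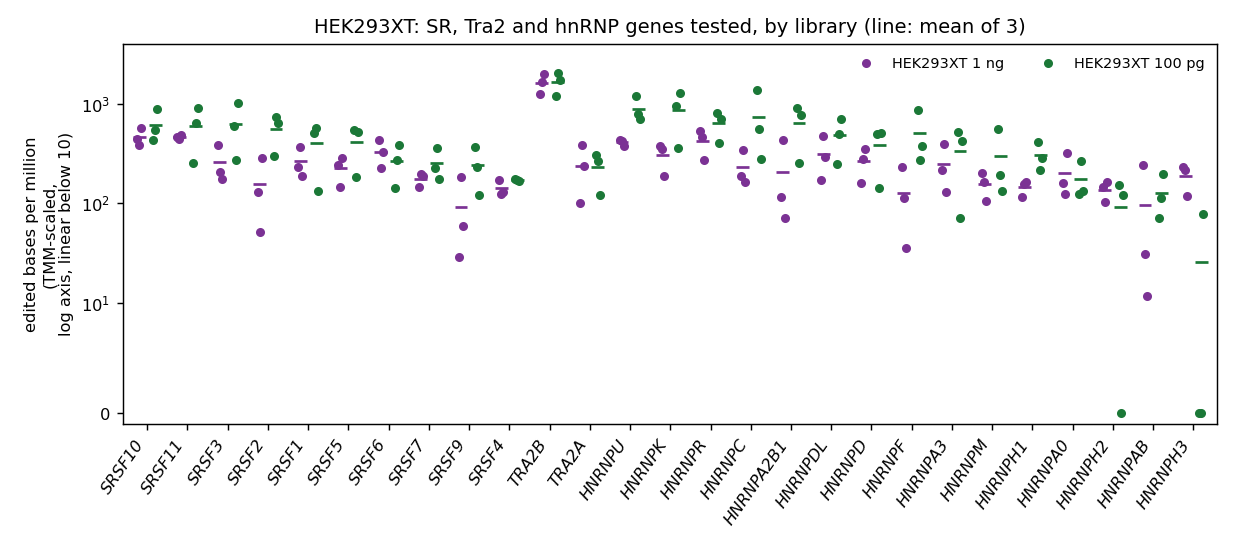
Edited bases of each gene scaled to a common library total with TMM factors (y axis, log scale that is linear below 10), for the 27 members tested in HEK293XT (x axis, SR, then Tra2, then hnRNP genes), with 3 libraries at 1 ng and 3 at 100 pg as points and group means as lines. TRA2B lies highest in both groups, and HNRNPH3 is at 0 in 2 of 3 libraries at 100 pg.

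Most edits of TRA2B in HEK293XT lay at 1 cytidine. Its edited bases were 88, 160 and 169 at 1 ng and 117, 200 and 158 at 100 pg, which overlapped (log2 change −0.02 ± 0.28, adjusted p = 0.993). The 3′ UTR cytidine at chr3:185917554 (hg38), the capital in the sequence above, was edited in 39.3% (Wilson 95% interval 32.8% to 46.2%), 52.7% (46.8% to 58.4%) and 56.0% (50.0% to 61.8%) of reads at 1 ng, and in 59.4% (52.0% to 66.4%), 50.9% (45.6% to 56.2%) and 47.4% (41.7% to 53.2%) at 100 pg. In all, 791 of its 1554 reads were edited, and TRA2B held 892 edited bases. The intervals cover counting error only, as no molecular identifiers were used. The authors' caller removes known sequence variants, and the filter used here removed edited fractions of 0.8 or more. No library here of HEK293XT lacked enzyme, so these libraries cannot tell an edit from an unlisted variant of the cells at this cytidine. Clusters over it stayed in the 1 ng and 100 pg lists from which the authors had removed background clusters. The controls behind that removal are not among these libraries, and whether they covered this cytidine was not tested. The mouse gene was not the most edited in brain, where Tra2b held 161 edited bases. Without TRA2B the members' exon share at 1 ng was 82.0%.

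Other recurring HEK293XT sites were edited far less. The members' clusters merged into 922 regions there, 79.2% of them in 1 library, 3 in all 6 and 8 in 5. The 3 were in the 3′ UTRs of TRA2B and SRSF3 and under the label of HNRNPA1P48. The SRSF3 cytidine was edited in 76 of 4234 reads, 1.79%, and between 1.09% and 2.87% in each library. HNRNPK had 17 of 802 reads at the printed cytidine, listed in 3 libraries, within a region of 5 libraries. HNRNPA1P48, HNRNPA1P10 and other near-identical copies of HNRNPA1 can share reads with that gene, so their counts are uncertain. HNRNPA1 itself held 49 edited bases, with 76.9% of its label entries inside the gene.

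In the confident lists, a member was named for 12 of 5177 clusters in RBFOX2-INSCRIBE, 13 of 4542 in enzyme-only and 4 of 2092 in buffer-only, and for 18 of 762 at 1 ng and 9 of 242 at 100 pg. The lists from which the authors had removed background clusters, which cover every group but buffer-only, named a member for the same number of clusters. HNRNPR had the most, 4, all at 1 ng, and Srsf10, Tra2a, Hnrnpd, Hnrnpm, Hnrnpa1 and TRA2B had 3 each over their groups. Of the 12 in RBFOX2-INSCRIBE 7 lay in introns, in Srsf10, Hnrnpc, Hnrnpm, Srsf4, Hnrnpd and Tra2a, and of the 13 in enzyme-only only 1 had an intron label, which lay outside Hnrnpm. Over all genes 46.0% of the confident clusters had an intron label in RBFOX2-INSCRIBE and 26.8% in enzyme-only, so the shares of all genes stood in the same order as those of the members (58.3% and 7.69%).

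APOBEC1 is known to prefer an A or U before the cytidine. An A or U stood before the edited cytidine in 62.8% to 72.1% of the RBFOX2-INSCRIBE sites in members, 62.2% to 67.3% of the enzyme-only sites and 52.2% to 55.2% of the sites in buffer-only slices, which received no enzyme. Over all sites RBFOX2-INSCRIBE had 61.5% to 65.8%, enzyme-only 61.0% to 63.2% and buffer-only 51.8% to 52.5%. In HEK293XT they were 84.1% to 86.5% at 1 ng and 72.2% to 78.3% at 100 pg for members, and 71.0% to 71.7% and 59.1% to 60.6% over all sites. Edits per 1000 target bases were 3.63 ± 0.33 in RBFOX2-INSCRIBE, 3.33 ± 0.12 in enzyme-only and 2.97 ± 0.07 in buffer-only, and 4.42 ± 0.36 at 1 ng and 4.51 ± 0.54 at 100 pg. In each library this was below the value over all clusters. In brain 80.7% to 88.7% of member sites rested on 1 edited read, in HEK293XT 40.2% to 53.4% at 1 ng and 15.3% to 24.1% at 100 pg.

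Other genes of the splicing pathway gave 0 calls as well. In RBFOX2-INSCRIBE against enzyme-only, the kinases and phosphatases of SR proteins had a median log2 change of −0.11 over 9 tested, SR-related proteins −0.16 over 21, core spliceosome genes −0.29 over 22, nonsense-mediated decay factors −0.05 over 8 and other RNA-binding proteins close to hnRNPs −0.27 over 19. The negative changes numbered 6, 13, 16, 5 and 14 in that order, and all genes tested had 4979 of 9509. Rbfox2 itself, the gene of the antibody's target, had 190, 217 and 189 edited bases in RBFOX2-INSCRIBE. Enzyme-only slices had 134, 146 and 106, and buffer-only slices 141, 95 and 108. These counts are not scaled to library totals, which were highest in RBFOX2-INSCRIBE.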

How the data were processed

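The authors trimmed reads with cutadapt and aligned them with STAR (versions 2.4.0 and 2.5.2 in the submitters' processing notes, to hg38 and mm10), called C-to-U sites with SAILOR, called edit clusters per library with FLARE at a false discovery rate of 0.1, and intersected the clusters of 3 replicates into confident lists. The deposited cluster tables give counts of target and edited bases and of reads, a fraction edited, a score and the mean read depth as a signal. The deposited site lists give a score per site with the edited and covering reads as another column, and the deposited confident lists give a depth signal and, as other values, adjusted p of the merged windows, which were not used. No deposited value is normalised, and 0 columns of samples were left unused. The brain kit was taken as stranded and the low-input kit as unstranded, since the labels list both for all samples, and strand of HEK293XT clusters is then unknown where genes overlap (SRSF1 and SRSF2, for example, share most of their clusters with another label).

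Edited bases were summed per gene symbol and library over clusters, a cluster counting for every gene in its label, and tested with edgeR 4.0.16 in R 4.3.3 (TMM factors, filterByExpr, glmQLFit and glmQLFTest; diffSpliceDGE for intron against exon), with Benjamini-Hochberg adjustment over all genes tested and calls under 0.05. Brain was 1 fit of 9 libraries and HEK293XT 1 fit of 6, grouped by the labels. Steps were tested on simulated data. Sites with a score over 0.5 and an edited fraction under 0.8 were kept. Sequences were read with pysam 0.24.0 from the mm10 and hg38 genomes, regions from GENCODE, and tables were made with pandas 2.3.3. Named are the 8 members with the most edited bases per system, the 3 highest and 3 lowest changes per comparison, the 6 with the most confident clusters (with ties), those with UGCAUG in all 3 RBFOX2-INSCRIBE libraries and those listed in 1 system; printed regions were chosen after their values were seen. The members and lists were chosen with earlier results of these data known. Alternatives were DESeq2 1.42.0, other scaling, no filter, a replicate block, target bases as an offset, clusters or edited reads in place of edited bases, fewer groups, leaving out each library and, chosen after seeing the data, stricter clusters, clusters with 1 gene label and clusters inside gene bodies.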

Additional observations from a re-analysis of the deposited data

How the results depend on the processing

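No member was called under any alternative. The counts of called genes moved: in RBFOX2-INSCRIBE against enzyme-only from 156 to 58 with DESeq2, 3 with target bases as an offset, 97 for clusters, 60 for edited reads, 25 with cluster scores above 0.99, 44 with 1 gene label and 72 inside gene bodies (61 without enzyme-only replicate 2 to 144 when each library was left out). In enzyme-only against buffer-only they were 54 with DESeq2, 0 with the offset, 0 for clusters, 23 with only the compared groups and 10 with stricter scores, against 35 (13 without buffer-only replicate 2 to 38 without enzyme-only replicate 1). In HEK293XT they were 63 with DESeq2, 41 without a filter, 28 with a replicate block, 20 with the offset, 1 for edited reads, 0 with 1 gene label and 5 inside gene bodies, against 8 (0 without 1 ng replicate 1 to 7). Intron against exon calls were 29 without a filter and 3 with stricter scores against 47 (8 without enzyme-only replicate 1 to 133 without RBFOX2-INSCRIBE replicate 3), 16 and 6 against 33 between enzyme-only and buffer-only (2 without buffer-only replicate 1 to 39), and 0 throughout in HEK293XT. The causes were not tested.

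The exon share of members counted over clusters was 55.5%, 64.4% and 59.0% in RBFOX2-INSCRIBE, enzyme-only and buffer-only, and 74.1% and 81.0% at 1 ng and 100 pg. Without Hnrnpm it was 60.5% in RBFOX2-INSCRIBE and 70.6% in enzyme-only, and without TRA2B 82.0% at 1 ng. With scores above 0.99 it was 50.0% and 64.8% in the first 2 groups, and inside gene bodies 89.1% and 94.3% in HEK293XT. Leaving out each library gave 57.6% to 58.8%, 68.1% to 69.0%, 61.2% to 63.7%, 84.0% to 86.6% and 88.7% to 92.1% in these 5 groups.

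With target bases as an offset the log2 changes of Srsf9, Srsf3, Hnrnph3, Hnrnpl, Hnrnpul2 and Hnrnpdl in RBFOX2-INSCRIBE against enzyme-only were −0.00084, −0.22, −0.27, 0.42, 0.084 and 0.074, those of Hnrnpa1, Hnrnpc, Hnrnpdl and Hnrnph3 in enzyme-only against buffer-only −0.41, 0.48, 0.13 and 0.43, and those of SRSF6 and HNRNPC at 1 ng −0.59 and 0.72. Leaving out each library, the intron minus exon difference ran from −0.32 to 1.30 for Hnrnpul1 in RBFOX2-INSCRIBE against enzyme-only, and in enzyme-only against buffer-only from −0.43 to 0.31 for Srsf10, −0.58 to 0.17 for Tra2a and −0.21 to 0.80 for Hnrnpd. At 1 ng against 100 pg the change ran from −0.040 to 1.18 for HNRNPH2 and −0.0016 to 0.63 for SRSF6. Several other named changes kept their sign but moved by over 1.5 times. In RBFOX2-INSCRIBE against enzyme-only Hnrnpdl ran from −1.35 without RBFOX2-INSCRIBE replicate 2 to −0.31 without its replicate 1, Hnrnpul2 from −0.96 without RBFOX2-INSCRIBE replicate 2 to −0.26 without enzyme-only replicate 1, Hnrnph3 from 0.18 without RBFOX2-INSCRIBE replicate 1 to 0.79 without enzyme-only replicate 1, and Srsf3 came to 0.31 without enzyme-only replicate 2. In enzyme-only against buffer-only Hnrnpc came to −0.26 without buffer-only replicate 3 and Hnrnph3 to −0.75 without enzyme-only replicate 1. The Tra2b intron difference there ran from −2.83 without buffer-only replicate 3 to −0.98 without replicate 1, and those of Hnrnpm and Hnrnpd in RBFOX2-INSCRIBE came to 1.01 without its replicate 3 and 0.41 without enzyme-only replicate 2. At 1 ng HNRNPC came to −0.83 without 100 pg replicate 1, the SRSF11 intron difference to 5.19 without 100 pg replicate 3, and that of HNRNPD ran from 0.88 without replicate 1 to 3.61 without replicate 3 of 100 pg. Without 100 pg replicate 3 HNRNPH3 was at 0 in all 100 pg libraries left, and no fold is given. None of these was called.

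Replicate numbers are shared between groups but did not pair the samples: same-numbered deviations correlated at −0.06 to 0.05. With the replicate block 142, 27 and 28 genes were called in the 3 comparisons and 48, 49 and 0 in the intron tests, members 0. The planned adjusted p under 0.01 for clusters was not run, as the cluster tables of single libraries hold no adjusted p, and the score above 0.99, chosen after seeing the data, was used. No brain member had over 46 edited bases in a library.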
